A study of Mus musculus with 2 samples.

Results

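This account concerns 4 genomic regions of the TGF-beta, activin and BMP pathways in mouse epidermis, out of 364 regions listed with a difference in 5-hydroxymethylcytosine (5-hmC) between imiquimod-treated and control skin. A region was taken when its comma-separated gene list held Acvr2b, Bmp7, Ltbp1 or Htra1 exactly, and each of the 4 genes had 1 such region with no other gene assigned to it. 5-hmC is the oxidised form of 5-methylcytosine made by TET enzymes. It was measured by hMeDIP-seq, in which DNA fragments that carry 5-hmC are captured with an antibody for sequencing. One library, the imiquimod library, came from epidermis of C57BL/6J mice aged 6 weeks that received imiquimod cream, 3.125 mg of the compound daily for 6 days. The other, the Vaseline library, came from epidermis of mice of the same strain and age. These received Vaseline, the vehicle control, also for 6 days. Imiquimod is a Toll-like receptor agonist that gives a psoriasis-like dermatitis in mouse skin. The columns of both libraries carry the label WT, read here as wild type. The number of mice behind a library was not stated.

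With 1 library per condition there is no replicate spread, no test between conditions was made, and each difference compares these libraries only. The list itself had been selected by the authors on the averages used here, with a limit near 2-fold and near 50 tags in the higher library, so a difference at these regions is a condition of their being listed and not a finding. The smallest listed difference was 1.9998-fold and the smallest larger tag number 49.5. Regions outside these limits were not analysed here. The table holds no expression values, and all of the 21 marker genes of fibroblasts, endothelium, pigment cells and leukocytes were without a listed region, so the tissue label could not be checked. In whole epidermis, fewer cells of a type and less 5-hmC per cell cannot be told apart.

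Ligands of the TGF-beta family bind pairs of type I and type II serine/threonine kinase receptors, which phosphorylate SMAD proteins that then enter the nucleus and regulate transcription. The ligands are held back outside the cell by latency proteins and antagonists, and proteases also regulate them. In epidermis, TGF-beta restrains keratinocyte proliferation, activin takes part in wound repair, and BMP signalling promotes differentiation and hair follicle stem cell quiescence. Among the 4 genes, Bmp7 encodes a BMP ligand and Acvr2b a type II receptor for activins and related ligands. Ltbp1 encodes a protein that ties latent TGF-beta to the extracellular matrix. Htra1 encodes a secreted serine protease that degrades matrix proteins and inhibits signalling by TGF-beta family ligands.

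Among the 4 genes, the 5-hmC signal was lower in the imiquimod library at the ligand and the receptor gene. It was higher at the genes for extracellular regulators, Ltbp1 and Htra1. This is not a split by role: the extracellular regulator gene Ltbp3, outside the 4, was 2.10-fold lower. The 4 genes were also chosen with earlier results of these data known. Every direction rests on matching the table's columns named control and treated to the Vaseline and the imiquimod sample. The average tag pileup, the mean number of overlapping sequenced fragments along a region, was 2.08-fold lower at Bmp7 and 2.04-fold lower at Acvr2b. It was 2.0-fold higher at Ltbp1 and 2.47-fold higher at Htra1. Over the whole list 74.5% of regions were lower and 25.5% higher, so 2 lower and 2 higher among 4 regions is read as a description only.

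The coding sequences inside the regions are shown because they are the exon stretches that fall within a region of lower pileup under imiquimod, with CpG dinucleotides, the main site of 5-hmC in adult tissues, in capitals. They are read 5′ to 3′ along the gene from the GENCODE transcripts of the GRCm38 assembly, the assembly that mm10 names. The signal was given per region, so which CpG carried 5-hmC or differed between the libraries cannot be told. Acvr2b was the only 1 of the 4 genes with exon sequence inside its region.
Acvr2b exon 6, chr9:119429865-119430008, plus strand: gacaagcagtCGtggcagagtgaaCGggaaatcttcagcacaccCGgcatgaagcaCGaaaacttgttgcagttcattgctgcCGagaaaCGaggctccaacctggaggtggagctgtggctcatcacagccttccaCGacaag
Acvr2b exon 7, chr9:119430220-119430368, plus strand: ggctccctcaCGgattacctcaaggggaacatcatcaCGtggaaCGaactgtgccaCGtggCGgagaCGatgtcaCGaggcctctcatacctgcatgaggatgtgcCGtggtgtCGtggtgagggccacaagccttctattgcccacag

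The Acvr2b exons lie whole within the region and correspond to codons 223 to 270 and 271 to 320 of the principal transcript, which has 11 exons. Exon 6 held 7 CpG in 144 bases and exon 7 held 9 in 149 bases, which is 48.6 and 60.4 per kb. The whole coding sequence of this transcript held 85 CpG in 1536 bases, or 55.3 per kb, so these exons lie on either side of their own gene's average. The exons make up 33.0% of the region, and the remaining sequence is intron.

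The Bmp7 region (chromosome 2, 172932684 to 172933268, 584 bp) lies in the first intron, 23.0 kb long, with its centre 7317 bp from the start of the gene. The average pileup there was 19.78 under Vaseline and 9.50 under imiquimod, and the highest pileup of any window was 32 and 16. Vaseline was the higher library by both measures, which at every region come from the same reads. In estimated tags this was 51.6 against 24.8, a 2.08-fold lower value with an exact 95% interval of 1.27 to 3.50. The interval covers counting error only and takes no account of the selection of the regions or of the scaling between libraries. By both measures the ratio was close to the limit of the list, with log2 ratios of -1.06 for the average and -1.0 for the highest window.

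The Acvr2b region (chromosome 9, 119429646 to 119430533, 887 bp) lies towards the 3′ part of the gene, 27588 bp from its start and 85.1% of the way along it. The average pileup was 19.96 under Vaseline and 9.79 under imiquimod, and the highest window reached 38 and 15. The Vaseline library was again the higher by both measures. Estimated tags were 79.1 and 38.8, so the region was 2.04-fold lower (95% interval 1.36 to 3.05). The highest window differed by more than the average, 2.53-fold. In the Vaseline library that window was 1.90 times the average of the region, and in the imiquimod library 1.53 times. The medians of this measure over all 364 regions were 1.66 and 1.64, and 46 regions had a more peaked Vaseline profile than Acvr2b.

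The Ltbp1 region (chromosome 17, 75167780 to 75168570, 790 bp) lies 162646 bp from the first start of the gene. It sits in intron 4, 27.6 kb long, of the long transcripts. The shorter transcripts begin downstream of it, with the nearest start 10.63 kb from the centre of the region. Ltbp1 is known to give a long and a short form of the protein from separate promoters. The average pileup was 7.875 under Vaseline and 15.75 under imiquimod, and the highest window was 14 and 31. Imiquimod was the higher library by both measures. Estimated tags were 27.8 and 55.5, which is 2.0-fold higher (95% interval 1.25 to 3.27). The region was weak in both libraries for its kind: of the 93 higher regions 9 had a lower Vaseline average, and 1 had a lower imiquimod average. By size of difference it ranked 92 of 93, at the limit of the list.

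The Htra1 region (chromosome 7, 130928259 to 130928763, 504 bp) lies 7692 bp upstream of the gene. The authors' annotation counts 1 promoter for it, under a definition of a promoter that reaches this far. The average pileup was 9.0 under Vaseline and 22.2 under imiquimod, and the highest window was 13 and 30. The imiquimod library was higher by both measures. Estimated tags were 20.3 and 49.95, which is 2.47-fold higher (95% interval 1.46 to 4.43). The region ranked 16 of the 93 higher regions by size, and its profile was flat, with the highest window 1.44 and 1.35 times the average. It was also short, with 22 of the 364 regions shorter. Its assignment to Htra1 rests on distance. The gene Plekha1 ends 14.9 kb away on the other side, and 1 annotated transcript of Fgfr2 spans the whole interval with an intron of 2908.8 kb.

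**Figure D1:**
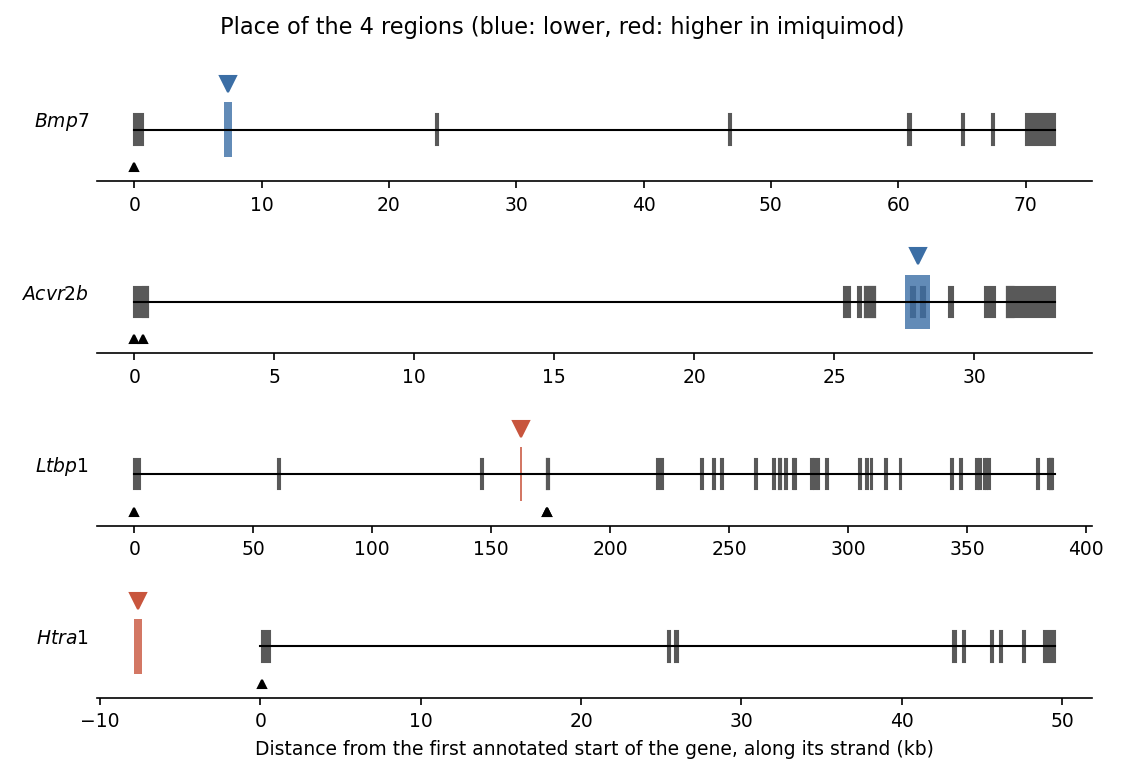
Place of the 4 regions along their genes. The horizontal axis is the distance in kb from the first annotated start of each gene along its strand, grey boxes are exons, black triangles are transcript starts, and coloured bars with a triangle are the regions (blue lower, red higher in the imiquimod library). Acvr2b alone has exons within its region, Bmp7 and Ltbp1 have theirs in introns, and the Htra1 region lies 7692 bp before the start.

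Within each direction the counting intervals overlapped, and whether the sizes differed was not tested. The interval of Bmp7 (1.27 to 3.50) contained that of Acvr2b (1.36 to 3.05), and the intervals of Htra1 (1.46 to 4.43) and Ltbp1 (1.25 to 3.27) overlapped. Bmp7 and Acvr2b were nearly alike in level as well as in ratio, with averages of 19.78 and 19.96 in Vaseline and of 9.50 and 9.79 in imiquimod epidermis. By size of difference they ranked 199 and 234 of the 271 lower regions, and the median lower region was 2.18-fold lower. The median averages of all lower regions were 19.3 in Vaseline and 8.63 in imiquimod. The Vaseline levels of Bmp7 and Acvr2b were near that median, with 154 and 164 of the 271 lower regions below them. Their imiquimod levels were above it, with 197 and 213 regions below them. Enriched intervals, as called by the authors from the same reads, were present in the Vaseline library alone at Bmp7 and Acvr2b and in the imiquimod library alone at Ltbp1 and Htra1. On the whole list such calls in Vaseline alone applied to 69.5% and in imiquimod alone to 19.0% of regions. By the highest window, 2 of the 2 higher and 5 of the 6 lower regions of the pathway genes in the plot of pileups reached 2-fold, against 65.6% of all higher and 74.2% of all lower regions. At 2.5-fold by the average there were 0 higher and 0 lower among them, against 12.9% and 17.0%. Bmp7, Acvr2b and Ltbp1 had their region inside the gene, as did 83.0% of lower and 49.5% of higher regions for some gene. None of the 4 regions held a CpG island, and 7.69% of all listed regions did.

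**Figure D2:**
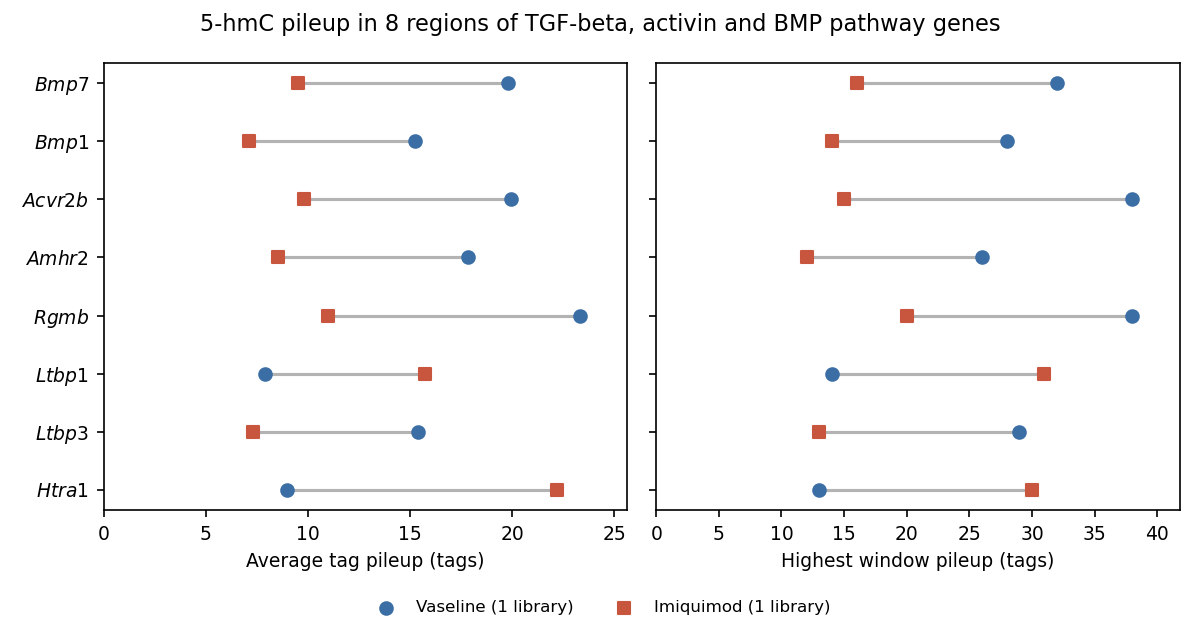
Pileup of 5-hmC tags in the regions of 8 pathway genes. The left panel shows the average over the region and the right panel the highest window, with circles for the Vaseline library and squares for the imiquimod library, 1 library each and therefore no error bars. The imiquimod value is the higher at Ltbp1 and Htra1 and the lower at the other 6 genes.

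The wider pathway was examined with lists of 125 genes, which include the 4 genes above. Listed regions were assigned to 8 of them (6.4%), 6 lower and 2 higher. Of 21900 protein-coding RefSeq genes 1.64% had a listed region, 1.39% a lower and 0.251% a higher one. That comparison is not matched on gene length, and the 4 genes were chosen because they are listed, so nothing is read from the difference. The other 4 genes, Amhr2, Rgmb, Ltbp3 and Bmp1, all had a lower region. The share of lower regions among the 8 was 75.0%, close to the 74.5% of the whole list. The lower regions of the 8 genes had a median difference of 2.09-fold against 2.18-fold for all lower regions. By role, 2 of 34 genes on the ligand list and 3 of 17 receptor genes had a lower region and 0 a higher one. Of the 34 genes for extracellular regulators 1 had a lower and 2 a higher region. All 25 genes for SMADs and intracellular regulators and all 15 target genes were without a listed region. This depends on which genes were put on the lists: Ctdspl and Ctdsp2, whose products act on SMAD proteins, were not on them and had a lower region. At the general rate of 1.64% lists of this size can be without a listed region, and absence from the list does not show that 5-hmC was alike in the libraries there.

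Among the receptors, Rgmb, which encodes a membrane-anchored co-receptor for BMP ligands, had the deepest of the 8 regions (chromosome 17, 15807046 to 15808089, 1043 bp). The average pileup was 23.3 under Vaseline and 11 under imiquimod, and the highest window was 38 and 20. Estimated tags were 108.5 and 51.2, which is 2.12-fold lower (95% interval 1.52 to 3.04), the narrowest interval of the 8. The highest window differed by less than 2-fold, at 1.90-fold. The region covers the start of the last exon and its 654 coding bases, codons 219 to 436, and runs into the intron before it. Amhr2 encodes the type II receptor for anti-Müllerian hormone, a hormone known from the reproductive tract. Its region (chromosome 15, 102452201 to 102452923) had averages of 17.8 and 8.545 under Vaseline and imiquimod and highest windows of 26 and 12. It was 2.09-fold lower (1.27 to 3.32) and is shared with the neighbouring gene Prr13, which begins downstream of it.

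Ltbp3 encodes a second latent TGF-beta binding protein. Its region (chromosome 19, 5748157 to 5749250, 1093 bp) had averages of 15.4 under Vaseline and 7.31 under imiquimod, with highest windows of 29 and 13, and was 2.10-fold lower (1.38 to 3.19). The 2 latent TGF-beta binding protein genes therefore differed in direction, with Ltbp1 higher and Ltbp3 lower. The Ltbp3 region was not assigned to Ltbp3 alone. The Bmp1 region (chromosome 14, 70466642 to 70467490) lies inside Phyhip and beyond the end of Bmp1, 53194 bp from the start of Bmp1. Its averages were 15.3 and 7.11 and its highest windows 28 and 14 under Vaseline and imiquimod, and it was 2.15-fold lower (1.34 to 3.53). Bmp1 was placed on the ligand list for its name, but its product is a metalloprotease that processes procollagen and cleaves the BMP antagonist chordin.

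Coding exon of the pathway gene itself lay in 4 of the 6 lower regions, those of Acvr2b, Amhr2, Rgmb and Ltbp3, and in 0 of the 2 higher regions. The Bmp1 region overlaps coding exon too, but of Phyhip. Over the whole list, coding exon of any assigned gene, a wider measure that would include the Bmp1 region, lay in 44.3% of lower and 4.3% of higher regions. The coding stretches of the other 3 genes are given to set beside those of Acvr2b, again with CpG in capitals. For Rgmb the first 300 coding bases of the exon are shown, for Amhr2 and Ltbp3 the longest coding exon in the region.
Rgmb exon 3, first 300 bases, chr17:15807502-15807801, minus strand: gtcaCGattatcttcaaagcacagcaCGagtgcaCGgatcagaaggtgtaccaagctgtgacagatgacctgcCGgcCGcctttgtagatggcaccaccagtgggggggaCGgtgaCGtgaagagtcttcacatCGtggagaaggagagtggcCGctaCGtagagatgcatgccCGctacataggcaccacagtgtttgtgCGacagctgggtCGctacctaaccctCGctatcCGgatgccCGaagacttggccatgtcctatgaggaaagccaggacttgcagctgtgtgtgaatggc
Amhr2 exon 8, chr15:102452387-102452559, plus strand: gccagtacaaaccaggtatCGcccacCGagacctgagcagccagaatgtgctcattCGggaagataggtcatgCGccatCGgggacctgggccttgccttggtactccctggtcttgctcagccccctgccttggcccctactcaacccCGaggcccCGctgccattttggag
Ltbp3 exon 12, chr19:5748870-5748968, plus strand: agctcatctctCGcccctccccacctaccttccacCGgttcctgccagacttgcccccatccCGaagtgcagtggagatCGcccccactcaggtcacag

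CpG were not uniformly denser in these stretches than in the rest of the coding sequence. The Rgmb stretch held 16 CpG in 300 bases, 53.3 per kb, and all 654 coding bases of the exon held 22, or 33.6 per kb, against 41.3 per kb for the whole Rgmb coding sequence. Amhr2 exon 8 held 7 CpG in 173 bases, 40.5 per kb against 28.2 for its coding sequence. Ltbp3 exon 12 held 4 in 99 bases, 40.4 per kb against 55.9. With Acvr2b, the exons above and below their gene's own density were therefore mixed.

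**Figure D3:**
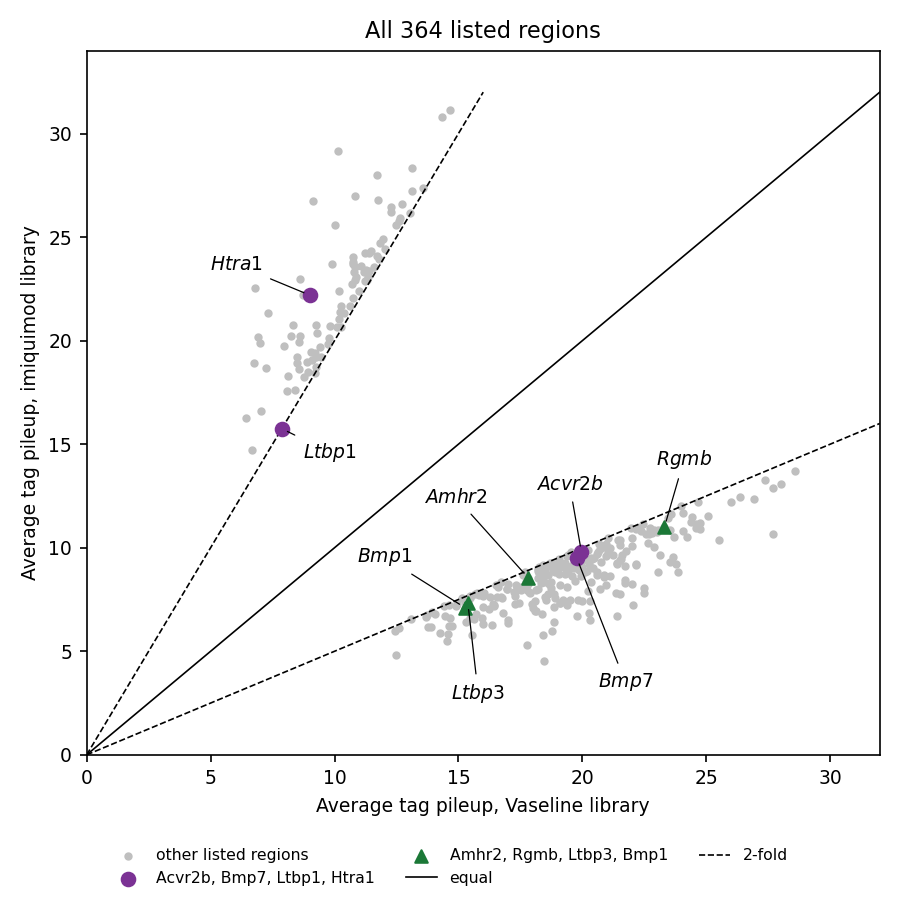
Average tag pileup of all 364 listed regions, with Vaseline on the horizontal and imiquimod on the vertical axis, 1 library each. Grey points are other regions, circles are Acvr2b, Bmp7, Ltbp1 and Htra1, triangles are the other 4 pathway genes, the solid line marks equal values and the dashed lines 2-fold. The empty band between the dashed lines is the selection of the list, Ltbp1 sits on its line at 7.875 and 15.75, and Htra1 stands further off at 9.0 and 22.2.

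Other listed regions near the 4 regions lay 441 kb or more away, and the numbering of the merged regions showed many unlisted ones between. Before Acvr2b the nearest listed region lay 441 kb away in Ctdspl, was 2.39-fold lower and was separated by 84 numbered regions. No listed region followed Acvr2b on chromosome 9. Bmp7 lay between a region of Tshz2, 3109 kb before it and 2.45-fold higher, and a region of Npepl1, 1178 kb after it and 2.07-fold lower, with 393 and 158 numbered regions between. Ltbp1 lay between a region without a gene that was 2.03-fold higher, 9271 kb before it, and a region of Fez2 that was 2.05-fold lower, 3232 kb after it. The next listed region after Htra1 lay 10534 kb away, near Pnpla2 and Cd151, and was 2.38-fold lower.

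The size of every difference depends on how the libraries were scaled, and this step was not stated. When both libraries were set to the same total of averages across the list, which multiplies imiquimod by 1.40, Bmp7 was 1.48-fold and Acvr2b 1.45-fold lower, while Ltbp1 was 2.81-fold and Htra1 3.46-fold higher. The directions were the same under this scaling, but 0 of the 6 lower regions of the pathway stayed at 2-fold, against 4.06% of the lower regions of the whole list. The total was taken over the listed regions alone, of which 74.5% were lower, so it is not a scaling of whole libraries. As the 6 lower regions differed by at most 2.15-fold, the factor of 1.40 by itself takes them below 2-fold.

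**Figure D4:**
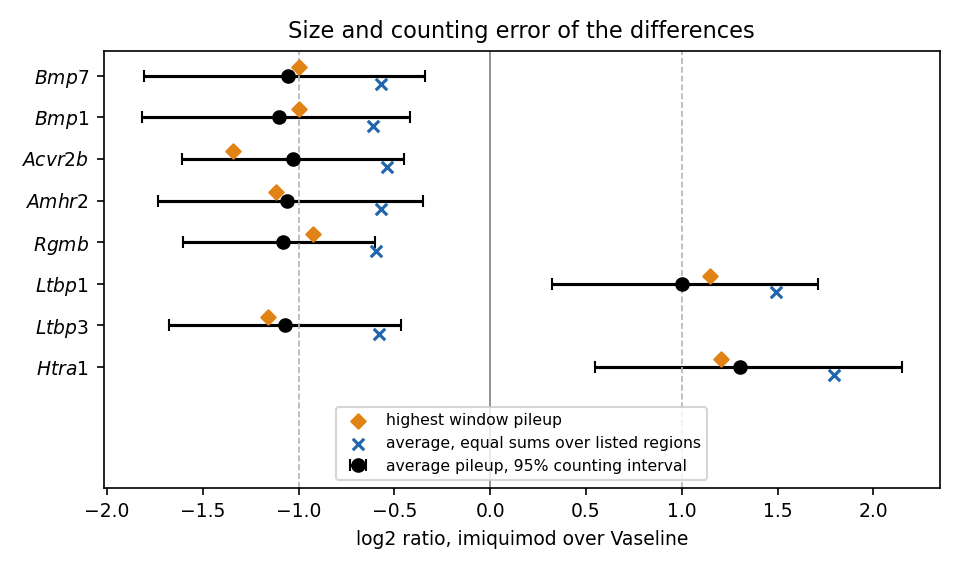
Log2 ratio of imiquimod over Vaseline (horizontal axis) for the regions of 8 pathway genes. Black points are ratios of the average pileup with exact 95% intervals for counting error, diamonds are ratios of the highest window, crosses are ratios of the average after both libraries were set to the same total, and dashed lines mark 2-fold. All intervals leave out 0 in regions that were selected for a difference, and the crosses of the 6 lower genes lie between -0.5 and -0.7.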

How the data were processed

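Epidermis was separated from dermis with dispase, and its DNA was sonicated, ligated to barcode adapters and immunoprecipitated with a 5-hmC antibody, per the labels' protocols. The submitters' processing notes name CASAVA, MACS2 and mm10. Alignment, duplicate handling, input and scaling were not stated. Enriched intervals of 4 libraries had been merged by the authors into numbered regions, per the file headers. The WT columns were used because the descriptions of both samples name the deposited WT table. Within them, control and treated were matched to Vaseline and imiquimod by these words alone. Another 6 columns of values, from 2 libraries outside this series, were not used.

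The deposited signal of each region is an average and a highest tag pileup (coverage) per library. The authors' deposited log2 ratio was that of the averages without a pseudocount, and their tag score the larger average times length divided by 224, for each of the 364 regions (tolerance 1e-06). Tag numbers were computed in the same way, with exact Clopper-Pearson intervals at 95% on the rounded numbers. The intervals were checked on simulated tag numbers drawn without any selection by fold or tag number. Their coverage in a list selected as this one was not tested. Without molecular identifiers, tags may be copies of one molecule, so intervals cover counting error only. Estimated tags summed to 19445 (Vaseline) and 12942 (imiquimod), and total depth is unknown.

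Coordinates are as in the deposited table, whose end minus start equals the length, so starts may count from 0. Distances to a gene start are the authors'. Exons came from GENCODE M21, and coding exon overlap used its basic set, by symbol of the assigned gene. No sequence of introns or flanks was read. The text names the regions of the 4 genes, of other genes on the pathway lists, and the nearest listed regions, of which 1 is not reported here. The 4 genes and the lists were chosen with earlier results of these data known. Software was SciPy 1.17.1, pandas 2.3.3 and numpy 2.4.6 under Python 3.11.15.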

Additional observations from a re-analysis of the deposited data

How the results depend on the processing

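The log2 ratios of the 4 regions kept their sign and stayed within their counting intervals with the highest window, with both libraries set to the same total of averages and with a pseudocount of 1. A region listed near 2-fold cannot change sign under the latter 2. The highest window comes from the same reads, in regions selected for a difference in the average. The kept signs therefore say nothing about stability. At 2-fold after setting the same total, 0 of the 2 lower regions among the 4 genes and 0 of the 6 among all pathway genes remained. That count follows from the factor and from differences listed near 2-fold, and is not a separate result. At 2.5-fold, 0 lower and 0 higher regions remained in either set. Counting only regions inside the gene left 1 higher region in either set, Ltbp1, since Htra1 lies upstream. No paired analysis was possible because each condition had 1 library, and leaving out a replicate was not possible. The tag numbers, 20.3 to 108.5 per library and region, limit what can be told: the intervals of the 4 regions span from 1.25-fold to 4.43-fold.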

Other observations

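Ctdspl and Ctdsp2 encode small phosphatases that are known to remove phosphate groups from the linker of SMAD proteins, and were not on the pathway lists. They were chosen after their values were seen. The Ctdspl region, the nearest listed neighbour of Acvr2b (chromosome 9, 118987793 to 118988447), had an average pileup of 18.6 under Vaseline and 7.789 under imiquimod, with highest windows of 26 and 12. It was 2.39-fold lower (exact 95% interval for counting error 1.42 to 4.01). The Ctdsp2 region (chromosome 10, 126990899 to 126991780) had averages of 18.4 and 8.43 and highest windows of 30 and 15, and was 2.18-fold lower (1.43 to 3.40). It overlaps coding exon of Ctdsp2 and was also assigned to Avil and to the microRNA genes Mir26a-2 and Mir546. With 74.5% of all listed regions lower, 2 lower regions are near what the list as a whole holds.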
